A study of Mus musculus with 2 samples.

Results

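The genes described here encode 3β-hydroxysteroid dehydrogenases: Hsd3b1, Hsd3b2, Hsd3b3 and Hsd3b6 of the gene cluster on mouse chromosome 3, with Hsd3b7 on chromosome 7 as a contrast from outside it. They were chosen by symbol, and are 5 of the 21938 protein-coding genes of the annotation used. The assay was DNase-seq, which maps where the nuclease DNase I cuts DNA in nuclei, so that open chromatin appears as peaks of cuts. The tissue was the whole adrenal gland. Both donors were female, of strain B6CASTF1/J from The Jackson Laboratory and aged 36 days, and the labels name no treatment. The strain is the F1 hybrid of C57BL/6J and CAST/EiJ, and the deposited values do not separate the parental alleles. There is 1 group of 2 libraries, which the labels call biological replicates 1 and 2 and number as separate animals under 1 donor record. With 1 group no test between conditions is possible and no p-value was computed. Errors are SDs over the 2 libraries, and that spread may in part be technical.

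These enzymes oxidise and isomerise steroids such as pregnenolone, which becomes progesterone, a step on the way to corticosterone and aldosterone. In mice Hsd3b1 is the main form of the adrenal gland and gonads, Hsd3b6 is known from the aldosterone-producing zona glomerulosa of the adrenal cortex and from Leydig cells, and Hsd3b2 and Hsd3b3 are known from kidney and liver. Hsd3b7 does not act on steroid hormones but on sterol intermediates of bile acid synthesis. In a whole gland, fewer cells with an open site and less opening per cell cannot be told apart.

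Replicate 1 had 157595 peaks and replicate 2 had 166206, with median heights of 0.897 and 0.997. Height is the deposited signal of a peak. Shared peaks were taller in replicate 2 by a median of 0.38 on the log2 scale (SD 0.50 over 126336 peaks). Promoter peaks were present at 6 and 5 of 6 adrenal cortex markers in replicates 1 and 2, at 4 and 5 of 5 medulla markers, at 4 of 6 ovary markers in each, at 4 of 4 X-zone and 4 of 5 adipocyte markers in each, at 3 and 4 of 9 kidney markers and at 2 of 7 liver markers in each. The share over all protein-coding genes was 68.6% and 69.6%, and a count near it does not speak for a cell type. The tallest cortex marker was Nr5a1, at 6.62 and 11.7, and the tallest medulla marker Chgb, at 10.4 and 17.0. In the X-zone list Thrb was tallest, at 9.27 and 12.7. The tallest adipocyte marker was Lipe, at 12.3 and 20.7, and the tallest ovary marker Amh, at 2.95 and 6.56. The tallest kidney marker was Aqp2, at 0.719 and 1.24, and the tallest liver marker Apoa2, at 3.58 and 4.86. Slc34a1, Umod and Alb, markers of kidney tubule and liver, had no promoter peak in either library. The tubule gene Lrp2 had 0.458 and 0.627 and the liver gene Apob 1.76 and 2.42. Away from the promoter, Slc34a1 had 4 peaks inside the gene in each library, Alb had 2 in each, and Umod had 0 and 1. Per protein-coding gene, the median promoter height was 2.97 and 4.46, where the promoter peak of a gene is the tallest one within 1 kb of any of its transcription start sites (TSS) and a gene with no peak counts as 0.

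Of the 5 genes, Hsd3b6 and Hsd3b7 had a promoter peak, and both had it in both libraries. Over all protein-coding genes 68.6% had a promoter peak in replicate 1, 69.6% in replicate 2 and 67.4% in both. Hsd3b7 had a tall promoter peak and Hsd3b6 a low one, whereas Hsd3b1 was open within and behind the gene but not within 1 kb of its start. Hsd3b2 and Hsd3b3 had neither a promoter peak nor a peak inside the gene. At Hsd3b1, Hsd3b2 and Hsd3b3 the deposited false discovery rate was under its limit of 0.05 at 0 bases within 1 kb of the 5′ TSS in each library, against 497 and 535 bases at Hsd3b6 and 1046 and 1002 at Hsd3b7.

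The sequences shown first are those of the pair of promoters with a peak, because they carry the footprints and the letters described for them. A footprint is a short stretch inside open chromatin that is protected from cutting. The Hsd3b7 sequence is chr7:127800430-127800603 on the plus strand, which ends at the base before the 5′ TSS, with the bases inside a footprint of both libraries in capitals. The Hsd3b6 sequence is chr3:98814444-98814540 on the minus strand, which also ends at the base before the 5′ TSS, with the letters AGATAA in capitals. Both were read from the RefSeq copy of GRCm38.p6.
Hsd3b7 promoter: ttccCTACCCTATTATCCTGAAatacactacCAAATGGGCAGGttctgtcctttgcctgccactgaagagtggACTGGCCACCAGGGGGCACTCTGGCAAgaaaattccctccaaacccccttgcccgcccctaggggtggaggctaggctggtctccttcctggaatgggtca
Hsd3b6 promoter: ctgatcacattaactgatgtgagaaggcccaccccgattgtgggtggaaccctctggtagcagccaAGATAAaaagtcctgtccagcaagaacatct

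Hsd3b7 (ENSMUSG00000042289.11, chr7:127800604-127803802, plus strand) had the tallest promoter peak of the 5 genes. Its height was 10.8 in replicate 1 and 17.5 in replicate 2 (14.2 ± 4.74, SD, n = 2), at percentiles 79.3 and 82.2 of all protein-coding genes. The peak covered chr7:127800461-127800640 in both libraries, over the first TSS, the first untranslated exon and the promoter just upstream. It was 0.70 higher in replicate 2 on the log2 scale, a shift within 1 SD of that over all shared peaks. A lower site at chr7:127801261-127801520, over coding sequence of the gene, had heights of 1.14 and 1.20. A site at chr7:127800912-127801140, by the most downstream start of the gene, had a height of 0.626 in replicate 1 and no peak in replicate 2. All 3 sites lie within 1 kb of a TSS of the gene, so none of them counts as a peak of its body. GENCODE also lists a read-through gene, Gm49388, that overlaps Hsd3b7 and had no promoter peak of its own. All 3 sites also overlap exon sequence of a further annotated gene, 9430064I24Rik.

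Footprints marked the Hsd3b7 promoter in both libraries, with 3 inside the peak in replicate 1 and 5 in replicate 2. The longest, of 27 bases in replicate 1 and 28 in replicate 2, ended at the same base in both. It is the last run of capitals of the Hsd3b7 promoter sequence shown above, and it holds the letters AGGGGGC, which are part of the known site of the factor CTCF. These letters were added to the search after the footprint had been seen. On either strand they occur in 13.3% of 20150 RefSeq promoters of 300 bases and in 6.18% of windows of 180 bases at the peaks of replicate 1. A footprint of 12 bases at chr7:127800461-127800472 was found whole in both libraries, and an overlapping pair lay just downstream of the TSS. Another pair shared 18 bases at chr7:127800434-127800451, upstream of the called peak.

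Hsd3b6 (ENSMUSG00000027869.14, chr3:98805504-98814443, minus strand) was the only member of the chromosome 3 cluster with a promoter peak in either library. Its height was 0.822 in replicate 1 and 1.12 in replicate 2 (0.972 ± 0.211, SD, n = 2), at percentiles 37.7 and 37.9 of all protein-coding genes. The Hsd3b7 promoter peak was 13.1 times as tall in replicate 1 and 15.6 times in replicate 2. The Hsd3b6 site, chr3:98814101-98814540, spans the TSS and the first, untranslated exon. It held 6 footprints in replicate 1 and 4 in replicate 2, of which 1 pair overlapped, at chr3:98814418-98814424, within that exon. The letters AGATAA, a site of GATA factors, start at position -31 from the TSS. A footprint of replicate 1, chr3:98814470-98814476, overlaps them, and none of replicate 2 does. AGATAA occurs in 9.45% of RefSeq promoters and, for windows as wide as this site, in 19.7% of those at peaks.

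Upstream of Hsd3b6, at -3.79 kb from the TSS, a site at chr3:98818121-98818340 had heights of 0.495 and 0.891. It lies over an exon of the pseudogene Gm12427. A site at -2.46 kb, chr3:98816835-98816962, reached 0.318 in replicate 1 and was no peak in replicate 2. The body of Hsd3b6 beyond 1 kb from its TSSs held no peak.

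**Figure D1:**
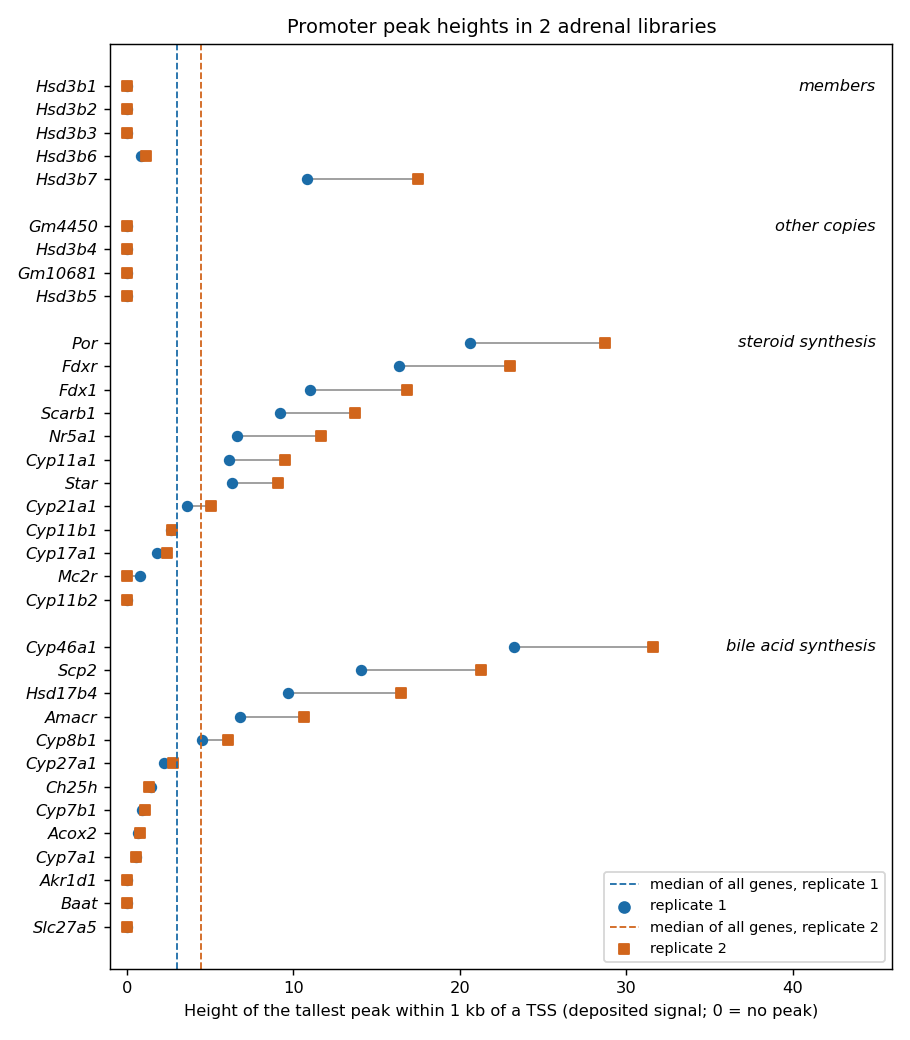
Promoter peak height of each gene in replicate 1 (circles) and replicate 2 (squares), with a line joining the libraries and dashed lines at the median of all protein-coding genes; a value of 0 means no peak. Hsd3b7 lies right of both medians, at 10.8 and 17.5, Hsd3b6 lies left of them, and the other 7 copies shown are at 0.

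Hsd3b1 (ENSMUSG00000027871.16, chr3:98852194-98859794, minus strand) had no promoter peak but, in the longer peak lists, the most open sites near any gene of the cluster. Inside the gene and over 1 kb from its TSS lay 3 peaks in replicate 1 and 6 in replicate 2, against none for the other 4 genes. Over all protein-coding genes 58.3% and 59.8% had at least 1 such peak. The call depends on the longer peak lists: in the shorter, stricter lists no peak inside Hsd3b1 remained in replicate 1, and the mean over the libraries fell from 4.5 to 1.5. Bases under the false discovery rate limit made up 10.9% and 19.9% of the Hsd3b1 gene, at percentiles 87.9 and 93.4 of all protein-coding genes, whose medians were 2.86% and 3.12%. With the stretch just past its 3′ end, Hsd3b1 had 9 open sites, 5 of them in replicate 1 and all 9 in replicate 2. The shorter lists held 1 of these 5 and 6 of these 9, and 4 of the 5 other cluster sites of each library.

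The sites formed a group near the start of the gene and a denser group around its 3′ end. In the first group, the site at chr3:98858161-98858364 lies 1.53 kb downstream of the TSS, over a 5′ untranslated exon, and had heights of 2.04 and 1.44. The site at chr3:98857900-98857995, over the exon with the start of the coding sequence, had a height of 0.927 in replicate 2 and no peak in replicate 1. In the middle of the gene, an intronic site at chr3:98855321-98855500 was likewise called in replicate 2 alone, at 1.44.

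In the group at the 3′ end, the last exon held a site at chr3:98852361-98853000 with heights of 2.04 and 1.47, and one at chr3:98853145-98853280 called in replicate 2 alone, at 1.44. Past the end of the gene, the tallest site of the cluster in replicate 1, chr3:98851581-98851780, had heights of 2.56 and 1.51 (2.03 ± 0.743, SD, n = 2). The tallest in replicate 2 was chr3:98851903-98852167, at 2.03 and 1.73. Farther on, chr3:98850401-98850620 had 1.27 and 1.64, and chr3:98851361-98851520 had a peak of 1.59 in replicate 2 alone. This downstream group reaches from 7.76 to 9.28 kb beyond the TSS.

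In height, 4 of the 5 Hsd3b1 sites found in both libraries were lower in replicate 2, with log2 differences (replicate 2 over replicate 1) of -0.23 to -0.76, and the fifth was 0.37 higher. The other 4 cluster sites found in both were 0.09 to 0.85 higher in replicate 2, the direction of the general shift. The replicates thus differed in which Hsd3b1 sites were tallest, and every value given for these sites is shown per library for that reason.

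**Figure D2:**
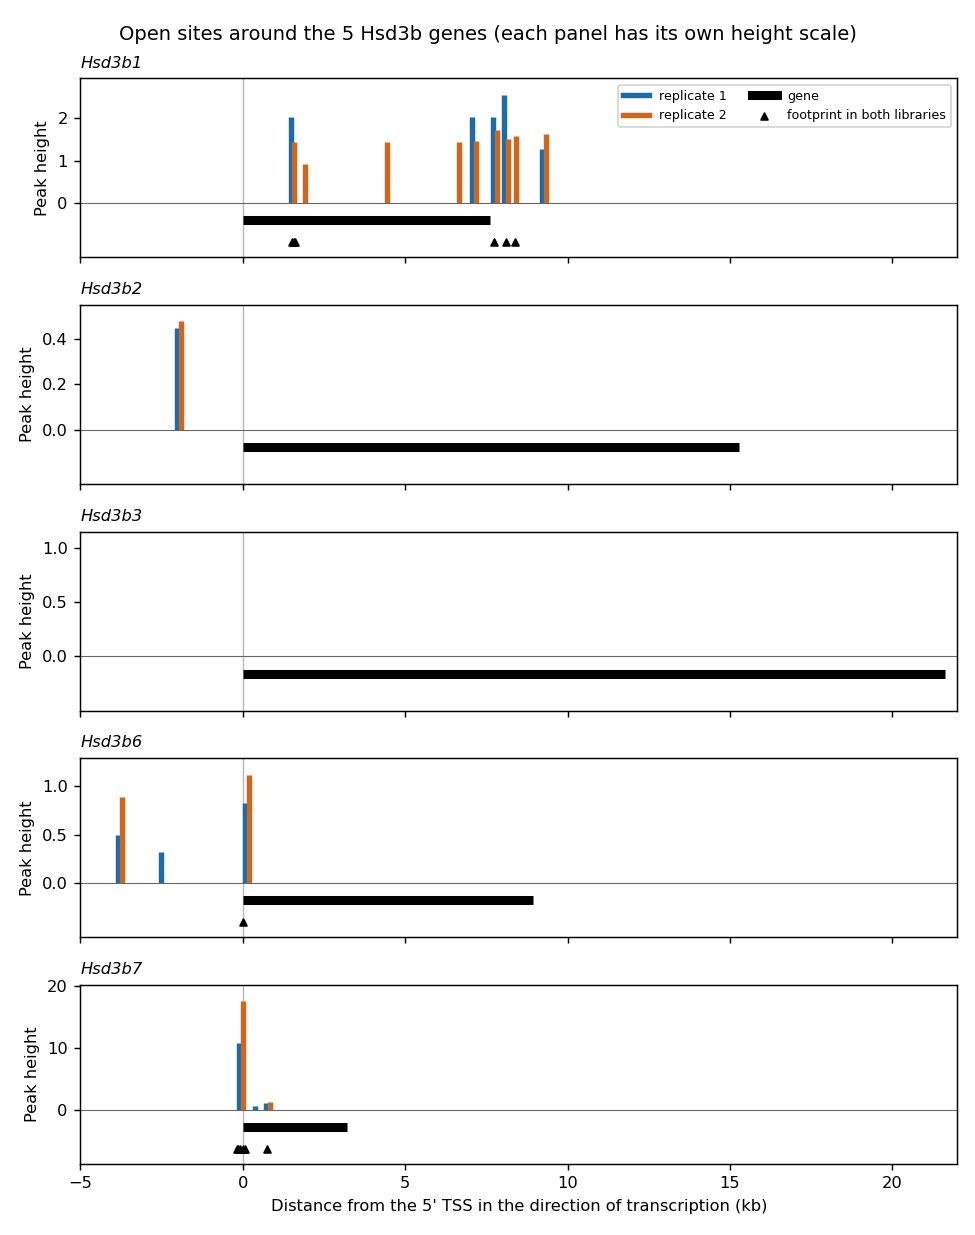
Height of each open site in replicate 1 (blue) and replicate 2 (orange) against distance from the 5′ TSS in kb, in 1 panel per gene, each with its own height scale; the black bar is the gene and triangles mark footprints found in both libraries. Hsd3b1 has its sites from 1.53 to 9.28 kb downstream and none at the TSS, while Hsd3b6 and Hsd3b7 have a site at the TSS.

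Footprints in both libraries fell on 4 of the Hsd3b1 sites. The site over the 5′ untranslated exon held 5 footprints in replicate 1 and 3 in replicate 2, with 3 overlapping pairs, at chr3:98858180-98858186, chr3:98858199-98858205 and chr3:98858262-98858270. Past the 3′ end, pairs overlapped at chr3:98851690-98851696, chr3:98852049-98852056 and chr3:98851410-98851418. The last of these lies in a site that was a peak in replicate 2 alone. The large site of the last exon held 4 footprints in each library, and none of them overlapped. Over the cluster sites, 6 of 21 footprints of replicate 1 (28.6%) and 7 of 24 of replicate 2 (29.2%) overlapped one of the other library. At the Hsd3b7 sites 4 of 5 and 4 of 7 did. Over all footprints, inside peaks or not, the shares were 54.1% and 52.7%. The counts for the cluster and Hsd3b7 take only footprints inside peaks, so the sets differ.

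Hsd3b2 (ENSMUSG00000063730.13, chr3:98709255-98724543, minus strand) had 1 open site nearby, at chr3:98726381-98726620, which is -1.96 kb from its 5′ TSS. Its heights were 0.449 and 0.477, and each library placed 1 footprint in it, at positions that did not overlap. Hsd3b3 (ENSMUSG00000062410.14, chr3:98741523-98763127, minus strand) had the nearest Hsd3b TSS for 1 site alone, chr3:98782408-98782501, at -19.3 kb. This was a peak of 0.238 in replicate 2 alone. The site near Hsd3b2 also lies past the 3′ end of Hsd3b3. The 4 other protein-coding copies of the cluster are Gm4450, Hsd3b4, Gm10681 and Hsd3b5. Hsd3b4 and Hsd3b5 are known as 3-ketosteroid reductases of kidney and liver. None of the 4 had a promoter peak, and the last open site of the cluster, chr3:98581161-98581320, lies in the Gm10681 gene by the pseudogenes Gm5853 and Gm9678, with heights of 0.505 and 0.583.

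The cluster as a whole runs over chr3:98431952-98874520, between the genes Zfp697 and Hao2, and holds 8 protein-coding copies and 11 pseudogenes in 443 kb. It had 12 peaks in replicate 1 and 16 in replicate 2, which is 2.71 and 3.62 peaks per 100 kb, below the 5.95 and 6.28 of the genome without gaps. Only 45.5% of the 32-base words of the cluster occur once in the genome, and the densities were not corrected for this. Fewer open sites and reads that could not be placed therefore cannot be told apart in the cluster density. Of the cluster peaks, 11 of each library overlapped one of the other, or 91.7% and 68.8%, against 80.2% and 76.2% of all peaks. Merged over the libraries they form 15 sites, 9 of them at Hsd3b1. Footprints were present in 75.0% and 87.5% of the cluster peaks and in 74.2% and 72.3% of all peaks. Heights in the cluster ran from 0.318 to 2.56 in replicate 1 and from 0.238 to 1.73 in replicate 2.

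**Figure D3:**
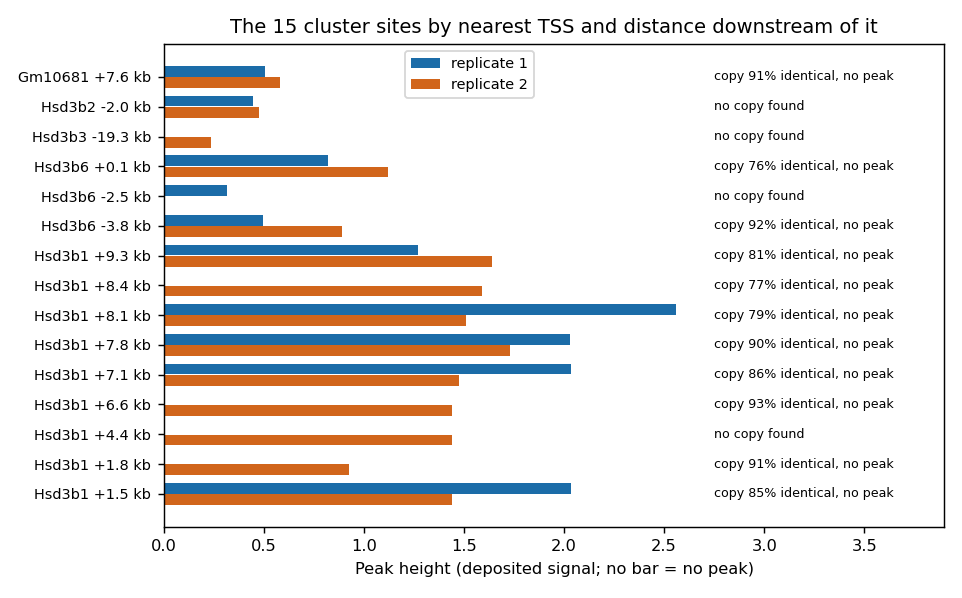
Height of the 15 cluster sites in replicate 1 (blue bars) and replicate 2 (orange bars), named by the nearest Hsd3b TSS and the distance downstream of it, with the identity of the best copy of each site elsewhere in the cluster. The 9 Hsd3b1 sites include the tallest of both libraries, and none of the best copies held a peak.

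The Hsd3b1 sites were tall for the false discovery rate that the authors' table gave them. This comparison was chosen after the values had been seen. Each height was divided by the median height of all peaks of that library whose lowest false discovery rate fell in the same bin of 0.25 on the log10 scale. The ratio was 3.49 to 4.42 for the 5 Hsd3b1 sites of replicate 1, and 1.58 to 2.50 for the 9 of replicate 2. At the other cluster sites it was 0.608 to 0.791 and 0.628 to 0.876, below the Hsd3b1 range in each library. Among all peaks of a like rate, the Hsd3b1 sites were at percentiles 99.7 to 99.98 and 86.8 to 97.4. Sites in and beside Hao2, the next gene, had 1.49 to 2.71 and 1.66 to 2.48, within the Hsd3b1 range in replicate 2. The Hsd3b1 sites lie at 1 locus and are not replicates of each other. The Hsd3b7 promoter peak had ratios of 1.09 and 1.48.

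Per gene, the median ratio of Hsd3b1 was 3.69 in replicate 1 and 2.11 in replicate 2, at percentiles 99.9 and 96.7 of the genes with at least 3 overlapping peaks. A higher median was found at 12 of 10485 genes in replicate 1 and at 364 of 10917 in replicate 2, and the median of all these genes was 1.06 and 1.05. Among the 12 other genes of steroid synthesis, 10 had a ratio in each library, with medians of 2.20 and 2.08 and ranges of 1.17 to 3.81 and 1.18 to 2.92. Cyp11a1, the side-chain cleavage enzyme that makes pregnenolone, had 2.85 and 2.92, and Hao2, the gene beside Hsd3b1, had 1.81 and 1.96. How the false discovery rates were computed is not given in the sources used here, and what sets the ratio was not tested.

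**Figure D4:**
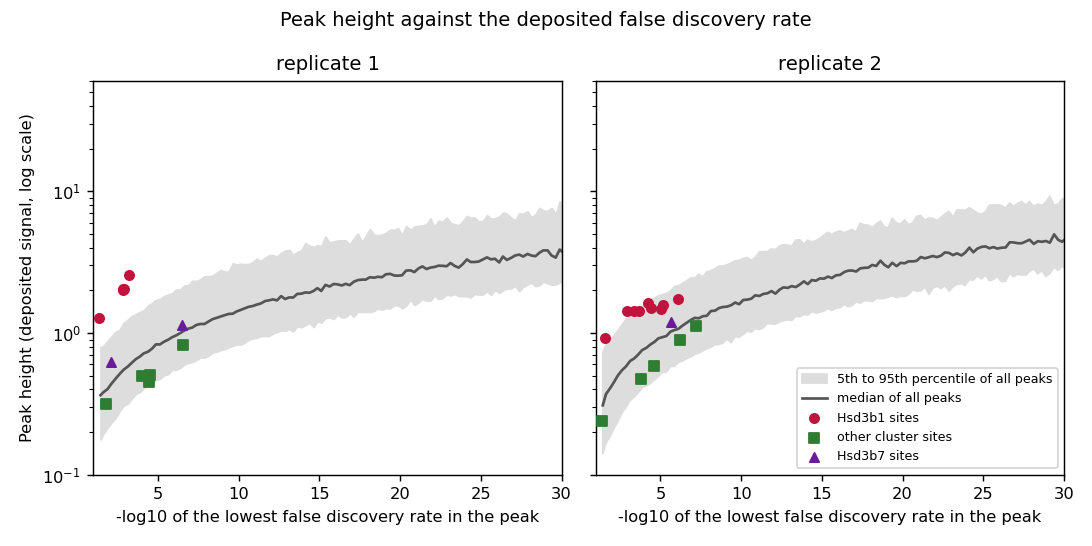
Peak height (log scale) against −log10 of the lowest false discovery rate in the peak, for each library; the line and band are the median and the 5th to 95th percentile of all peaks. All Hsd3b1 sites (red circles) lie above the median line in both libraries, and the other cluster sites (green squares) lie below it; the tall Hsd3b7 promoter peak is beyond the right edge.

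Repeated sequence limits what can be placed in this cluster. The coding sequences of Hsd3b2 and Hsd3b3 are 95.1% identical, those of Hsd3b3 and Hsd3b6 94.5%, and those of Hsd3b6 and Hsd3b1 90.0%. Hsd3b4 and Gm10681 have identical coding sequences, and Gm4450 is 99.6% identical to both. Hsd3b7 stands apart, with 56.3% to 58.2% of aligned bases the same as in the chromosome 3 copies. Only 45.5% of the 32-base words of the cluster occur once in the genome.

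Within 1 kb of the 5′ TSS, unique 32-base words made up 92.9% at Hsd3b1, 93.7% at Hsd3b2, 96.3% at Hsd3b6, 99.5% at Hsd3b7 and 42.2% at Hsd3b3, against a median of 98.6% over all protein-coding genes. At Hsd3b4 the value was 0%, and at Gm4450 23.9%. The missing promoter peaks of Hsd3b1 and Hsd3b2 therefore lie in sequence that is mostly unique, while those of Hsd3b3, Hsd3b4 and Gm4450 do not. How reads with several matching places were treated is not given in the sources used here, so a missing peak at these last 3 genes cannot be told apart from reads that could not be placed.

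**Figure D5:**
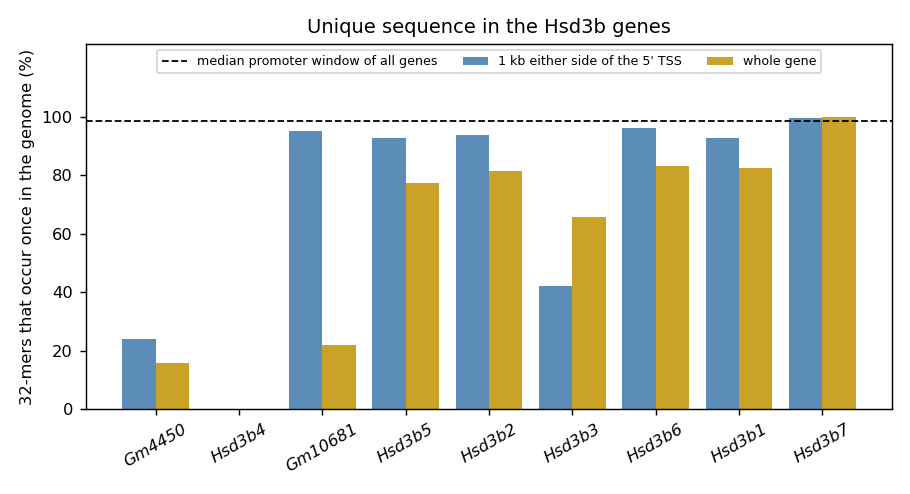
Share of 32-base words that occur once in the genome, within 1 kb of the 5′ TSS (blue bars) and over the whole gene (yellow bars), for the 8 cluster genes in genome order and Hsd3b7; the dashed line is the median promoter window of all genes. Hsd3b7 is at 99.5% and 100%, Hsd3b3 falls to 42.2% at its promoter, and Hsd3b4 is at 0%.

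Hsd3b3 shows the repeat at close range, because RefSeq gives it a pair of starts 718 bases apart whose upstream sequences are near copies of each other. Shown are 100 bases upstream of each, chr3:98763129-98763228 and chr3:98762412-98762511 on the minus strand of GRCm38.p6, with the differing base in capitals. They are set in register with each other, so that the first ends at the base before its start and the second 1 base farther from its own. They share 99 of 100 bases.
Hsd3b3 start 1: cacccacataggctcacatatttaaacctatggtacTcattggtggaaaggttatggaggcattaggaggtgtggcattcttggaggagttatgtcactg
Hsd3b3 start 2: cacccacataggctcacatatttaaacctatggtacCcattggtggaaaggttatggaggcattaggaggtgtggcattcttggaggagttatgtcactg

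Where an open site of the cluster had a copy elsewhere in it, the best copy held no peak. Of the 15 sites, 11 had a match elsewhere in the cluster, among them 8 of the 9 Hsd3b1 sites, with 76.6% to 92.6% identity. None of the 11 best matches held a peak, or a base under the false discovery rate limit, in either library. Peaks were sparse in the cluster, at 2.71 and 3.62 per 100 kb, so most stretches as short as a site hold none. Repeated sequence also limits these calls, and the best match of the Gm10681 site has 0% unique words. Among all further matches, 1 pair of open sites matched each other: the site in the last exon of Hsd3b1, chr3:98852361-98853000, aligned to chr3:98580969-98581599, around the open site in Gm10681, with 80.4% identity. In 5 of the 11 best matches every 32-base word of the copy occurs once in the genome, all of them copies of Hsd3b1 sites. The site past the 3′ end of Hsd3b1, chr3:98851581-98851780, has its copy at chr3:98841522-98841729, beside the pseudogene Gm12431, and both the site and the copy are unique throughout. They are shown on the minus strand of GRCm38.p6 with the bases that differ in capitals: 165 aligned bases are the same, 34 differ and 10 columns are gaps.
Hsd3b1 downstream site: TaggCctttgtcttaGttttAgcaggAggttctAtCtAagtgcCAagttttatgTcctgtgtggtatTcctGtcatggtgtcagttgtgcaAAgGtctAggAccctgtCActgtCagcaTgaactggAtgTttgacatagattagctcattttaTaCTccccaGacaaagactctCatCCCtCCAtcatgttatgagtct
its copy beside Gm12431: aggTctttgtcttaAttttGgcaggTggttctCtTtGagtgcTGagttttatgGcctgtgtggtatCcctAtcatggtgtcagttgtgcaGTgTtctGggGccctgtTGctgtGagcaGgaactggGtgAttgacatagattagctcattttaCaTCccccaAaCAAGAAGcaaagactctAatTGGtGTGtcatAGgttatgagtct

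The site over the 5′ untranslated exon of Hsd3b1 likewise has a copy beside the pseudogene Gm12427, at chr3:98820210-98820416, with 85.0% identity and no repeated word. The 30 bases around its first 2 shared footprints are shown, chr3:98858180-98858209 with the footprint bases in capitals, beside chr3:98820229-98820258 with the bases in their place. Both are on the minus strand, and 28 of the 30 bases are the same.
Hsd3b1 exon site: tgagGGCTGAGgagatcagcatcCAGACAC
its copy beside Gm12427: tgagGGCTGAGgagaccagcatcCAGACTC

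Other copies were less well placed. The Hsd3b6 promoter site matches chr3:98719580-98720017 over an exon in the 5′ part of Hsd3b2, with 75.6% identity and 86.2% unique words, and that stretch held no peak. The site upstream of Hsd3b6 in Gm12427 matches a stretch by Gm12431 with 92.4% identity, of which 10.9% of words are unique. The sites at Hsd3b7 had no match in the cluster. Between the 250 bases upstream of the starts of Hsd3b1, Hsd3b2, Hsd3b6 and Hsd3b7, no pair could be aligned.

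The promoters of the 5 genes are poor in CpG, the dinucleotide that is frequent at widely active promoters. In 300 bases of RefSeq promoter, Hsd3b3 had 0 at its first start, Hsd3b2 had 1, Hsd3b1 had 2, and Hsd3b6 and Hsd3b7 had 3 each, against a median of 14 over 16522 promoters. GC content was 38.7% at Hsd3b1, 41.3% at Hsd3b2, 42.3% at Hsd3b3, 49.0% at Hsd3b6 and 57.7% at Hsd3b7, and the shares of all promoters with a lower GC content were 7.70%, 11.0%, 12.2%, 25.6% and 52.2% in that order. Of 3874 promoters with 0 to 3 CpG, a class set after the values of these genes were seen, a peak was found at 18.4% (replicate 1) and 19.2% (replicate 2). Of the 12648 promoters with more CpG, 86.1% and 87.1% had one. CpG was counted at the first listed RefSeq start of each gene. The peak could lie within 1 kb of any annotated TSS of that gene, so not always at that start. Within the CpG-poor class, 1.57% and 1.34% of promoters had a peak as tall as that of Hsd3b7, and 12% and 11.2% one as tall as that of Hsd3b6. Hsd3b6 and Hsd3b7 were among the CpG-poor promoters with a peak, and Hsd3b1, Hsd3b2 and Hsd3b3 among the larger number without one.

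The letters of known factor sites were searched on both strands. AAGGTCA is a form of the site of SF-1 and the NR4A receptors that drive steroid genes. These letters occurred in none of the 5 promoters and none of the 15 cluster sites. They occur in 3.97% of all promoters and in 6.20% to 17.9% of peak windows as wide as those sites. No other form of this site was searched, so the result does not show that sites of these factors are absent. AGATAA occurred in the promoters of Hsd3b1, at position -134 from the start, Hsd3b3 and Hsd3b6. TTCNNNGAA, a STAT site, occurred in those of Hsd3b1 and Hsd3b7, and in 7.74% of all promoters. TGATAA, another GATA form, occurred 2 times in the site over the 5′ untranslated exon of Hsd3b1, where 6.25% of peak windows of that width hold it. TGANTCA, the AP-1 site, occurred in the Hsd3b6 promoter site (24.3% of windows as wide), the site near Hsd3b2 (20%) and an Hsd3b7 site (20.6%). TATAAA occurred in a site past the 3′ end of Hsd3b1 (6.03%). AGATAA, TTCNNNGAA and CCAAT also occurred in further sites. TGACGTCA, the cyclic AMP response element, occurred in none of the 5 promoters and none of the 15 cluster sites. A match describes these letters and shows no binding.

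Most of the other listed genes of steroid synthesis had a promoter peak, which Hsd3b1 lacked. Of these 12 genes, which include Nr5a1, Mc2r and Scarb1, 11 had one in replicate 1 and 10 in replicate 2. Over all protein-coding genes the shares were 68.6% and 69.6%. Median heights of the 12 were 6.23 and 9.27, against 2.97 and 4.46 over all genes. Cyp11b2, the aldosterone synthase, had none in either library, and Mc2r, the ACTH receptor, had 0.757 in replicate 1 and none in replicate 2. Of 13 genes of bile acid synthesis other than Hsd3b7, 10 had a promoter peak in each library, not far from the shares over all genes. Their median heights were 1.45 and 1.31, below those of all genes. Hsd3b7 was taller than Hsd17b4, at 9.66 and 16.4, a peroxisomal enzyme of the side chain. It was lower than Scp2, at 14.1 and 21.3, and Cyp46a1, the brain cholesterol hydroxylase, at 23.3 and 31.6. Cyp7a1, the rate-limiting enzyme of the liver, reached 0.561 and 0.530.

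Neighbouring genes gave a local comparison. Zfp697, on the Hsd3b4 side of the cluster, had promoter heights of 4.19 and 6.74, and Hao2, an oxidase of hydroxy acids on the Hsd3b1 side, had 1.02 and 0.777. With the shorter peak lists, or with a window of 500 bp, Hao2 had no promoter peak. Upstream of Hsd3b7, Setd1a, a histone methyltransferase, had 10.9 and 22.4.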

How the data were processed

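DNase-seq peaks, footprints and false discovery rates of 2 libraries were used as the authors deposited them, on mm10. Per the text deposited with each sample, every file derives from the filtered alignments of 1 library, unpooled. Which aligner and peak caller were used, and with which settings, is not given in the sources used here. Peak height is the authors' deposited signal, whose scaling is not stated, and the number of reads is unknown, so no counting interval can be given. The authors' table of false discovery rates holds q-values, listed only under 0.05, and the p-value column of the deposited footprints is 0.01 throughout. Every peak of the longer list of each library (157595 and 166206 rows, used here) touched a listed rate, and the shorter lists (103823 and 107539 rows) were an alternative.

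Genes and TSSs came from the basic set of GENCODE M21, and promoter sequences from RefSeq GRCm38.p6. The cluster was bounded by the RefSeq extents of its neighbours, because a read-through transcript of Zfp697 runs into it. An overlap of 1 bp made peaks or footprints shared. Word uniqueness was counted over the whole genome on both strands. Copies were found with BLAST+ 2.17.0 (e-value limit 1e-5 for sites, 1e-3 for promoters). Other tools were Python 3.11.15, pandas 2.3.3, numpy 2.4.6, Biopython 1.88, numba 0.67.0 and matplotlib 3.10.9. The overlap and word counts were tested on simulated data, with 0 errors in 7 checks. The members, lists, markers and motif letters were chosen with earlier results of these data known. By rule, all 5 members, the other copies, the neighbours (1 of which is not reported here), promoter sites, the 10 tallest cluster sites, body sites, sites with a footprint in both libraries and any pathway gene could be named; the remaining cluster sites were named after their values were seen, to account for all 15.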

Additional observations from a re-analysis of the deposited data

How the results depend on the processing

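Of 59 alternative values, 48 stayed within a set tolerance and 11 moved. A count moved if it changed by more than 1.5-fold, and a height or ratio if it shifted by at least the SD of the libraries. Any change in the share of unique words was called moved. Leaving out 1 of 2 libraries always shifts a mean by less than that SD, so for heights and ratios this label was fixed in advance. With a window of 2 kb in place of 1 kb, 4 of the 5 members had a promoter peak, because Hsd3b1 and Hsd3b2 then reach a site. The shorter peak lists gave a mean of 1.5 body peaks per library in place of 4.5, 9 cluster peaks in place of 14 and 6 shared cluster peaks in place of 11. At the Hsd3b1 sites, these lists kept 1 of 5 in replicate 1 and 6 of 9 in replicate 2, and at the other cluster sites 4 of 5 in each. Counting any peak that overlaps a member gave 9 body peaks. Peaks made wholly of unique 32-base words numbered 5.5 per library. A reciprocal overlap of 50% left 6.5 shared footprints in place of 10.5. Unique words in the cluster were 39.2% with 24 bases and 53.7% with 50. The Hao2 promoter mean of 0.898 became 0 with the shorter lists and 0 with a window of 500 bp. Where the construction does not show it, the cause was not tested. Leaving out either library gave 3 to 6 body peaks, 12 to 16 cluster peaks, 26 to 31 footprints and an Hsd3b7 height of 10.8 to 17.5. The median ratio of Hsd3b1 at like false discovery rates, averaged over the libraries, was 2.90, and 2.93 and 2.96 with bins of 0.1 and 0.5; these alternatives, and those of the pathway, Hsd3b6, Hsd3b7 and Hao2 values, were chosen after seeing the data. No paired analysis was possible because there is 1 group. Low peaks are limited by a depth that is unknown here.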
